A study of Mus musculus with 7 samples.

Results

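The genes described here encode the machinery of autophagy. Their members were a list of 34 mouse gene symbols, chosen with earlier results of these data known. Each gene was read from its brightest probe set whose annotation names that symbol alone. A probe set is the group of array probes that measures 1 transcript. Of the 34 genes, 33 had such a probe set, and all 33 passed the filter on dim probe sets, among 22180 genes with such a probe set, 17734 probe sets tested and 33793 on the array. Optn was not analysed here. The arrays held RNA from vascular fragments of the brain, pieces of small vessels that hold endothelium and mural cells and can carry attached cells. The mice were female, 12 weeks old and of the C57BL/6N strain (C57BL/6 in the sample labels), with no genetic change named. They had received PDGF-CC, a platelet-derived growth factor, or phosphate-buffered saline (PBS) into the cerebral ventricles 4 hours before sampling, which gave 4 PDGF-CC arrays and 3 PBS arrays. Whether each array came from its own mouse is not stated, so the p-values rest on the variation among these 7 arrays alone, part of which may be technical. The comparison asks which transcripts of brain vessels differ 4 hours after PDGF-CC.

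Autophagy encloses cytoplasm, damaged organelles or protein aggregates in a double membrane, the autophagosome, and delivers them to lysosomes. A kinase complex built on Ulk1 starts the process, a phosphatidylinositol 3-kinase complex marks the membrane, Atg2 and Atg9 proteins supply lipid, and an enzyme cascade attaches ubiquitin-like proteins to the growing membrane. Much of this control acts on proteins, through phosphorylation by mTORC1 and AMPK and through lipid attachment, which RNA arrays do not measure. In endothelium autophagy is known to help clear damaged mitochondria.

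The arrays resembled each other closely, with correlations between 0.987 and 0.994 over all probe sets. Brain endothelial markers were bright, with a mean log2 level over 10 genes of 10.88 to 10.97 in PDGF-CC and 10.89 to 11.07 in PBS arrays. They were negative for 7 of 10 (9 without PBS array 2 and 6 without PBS array 3), with a median difference of -0.04. Markers of other cells were not balanced between the groups. All 7 choroid plexus markers were negative, with list means of 6.49 to 7.34 in PDGF-CC against 7.51 to 7.85 in PBS arrays. Ttr, a defining marker, was at 12.37 to 12.78 in PDGF-CC against 12.84 to 12.93 in PBS arrays. Microglial markers were positive for 6 of 7, with 9.61 to 9.67 against 9.06 to 9.53, and PBS array 2 was the lowest. Pericyte markers were negative for 7 of 8, with 8.93 to 9.32 against 9.17 to 9.40. Smooth muscle markers were positive for 6 of 6, with 9.50 to 9.66 against 9.15 to 9.58 and a median difference of +0.21 (+0.06 without PBS array 1). Oligodendrocyte markers were low and positive for 5 of 5, with a list mean of at most 5.38 in any array and a median difference of +0.18 (+0.04 without PDGF-CC array 1). Neutrophil and monocyte markers were negative for 6 of 8, with 5.24 to 6.38 against 5.52 to 6.77. PDGF-CC array 4 and PBS array 3 had the lowest means of this list. Neuronal markers were low and positive for 6 of 8, with 4.42 to 4.59 against 4.29 to 4.40. Astrocyte markers were negative for 4 of 7, with 6.98 to 7.32 against 7.05 to 7.30. The part of these shifts in the autophagy results was not tested. In such tissue samples, fewer cells of a type and less RNA per cell cannot be told apart.

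For none of the 33 genes did a difference 4 hours after PDGF-CC pass the test. In the limma fit across all probe sets, 0 of 33 passed an adjusted p of 0.05, as did 0% of all probe sets, and the adjusted p of the members lay between 0.769 and 1. At an unadjusted p under 0.05, 0 members were lower and 0 higher, where over all 17734 probe sets the shares were 3.41% for lower and 2.63% for higher. In 0 members were the groups fully apart, against 4.3% of all tested probe sets in either direction. The members were chosen with earlier results of these data known, so these counts may fall below the shares through that choice alone. The differences of PDGF-CC minus PBS ran from -0.22 (Atg10) to +0.13 (Atg16l2) on the log2 scale, or from -14.2% to 9.6% in percent change. Their median was -0.01 and the median of their sizes 0.054, beside -0.0038 and 0.078 over all tested probe sets. Of the 33 genes 20 were negative (60.6%) and 12 positive, beside 51.4% negative of all tested probe sets. Becn1 did not differ at all in the deposited values.

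The intervals bound the difference in the deposited values, under the spread that limma assigns to each probe set. The array processing, described below, can compress fold changes. For Becn1, with 1 value in all 7 arrays, that spread comes from other probe sets. For every one of the 33 genes the 95% confidence interval of the difference lay within 1.5-fold in either direction, as it did for 88.3% of all tested probe sets. For 24 of them it lay within 1.25-fold, as for 53.3% of all tested probe sets. Each interval covers 1 gene, and together they are not simultaneous. The widest reach was that of Atg10, whose interval ran from -0.47 to +0.02. Leaving out any single array, the count within 1.5-fold was again 33 each time, and that within 1.25-fold ran from 18 to 23.

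**Figure D1:**
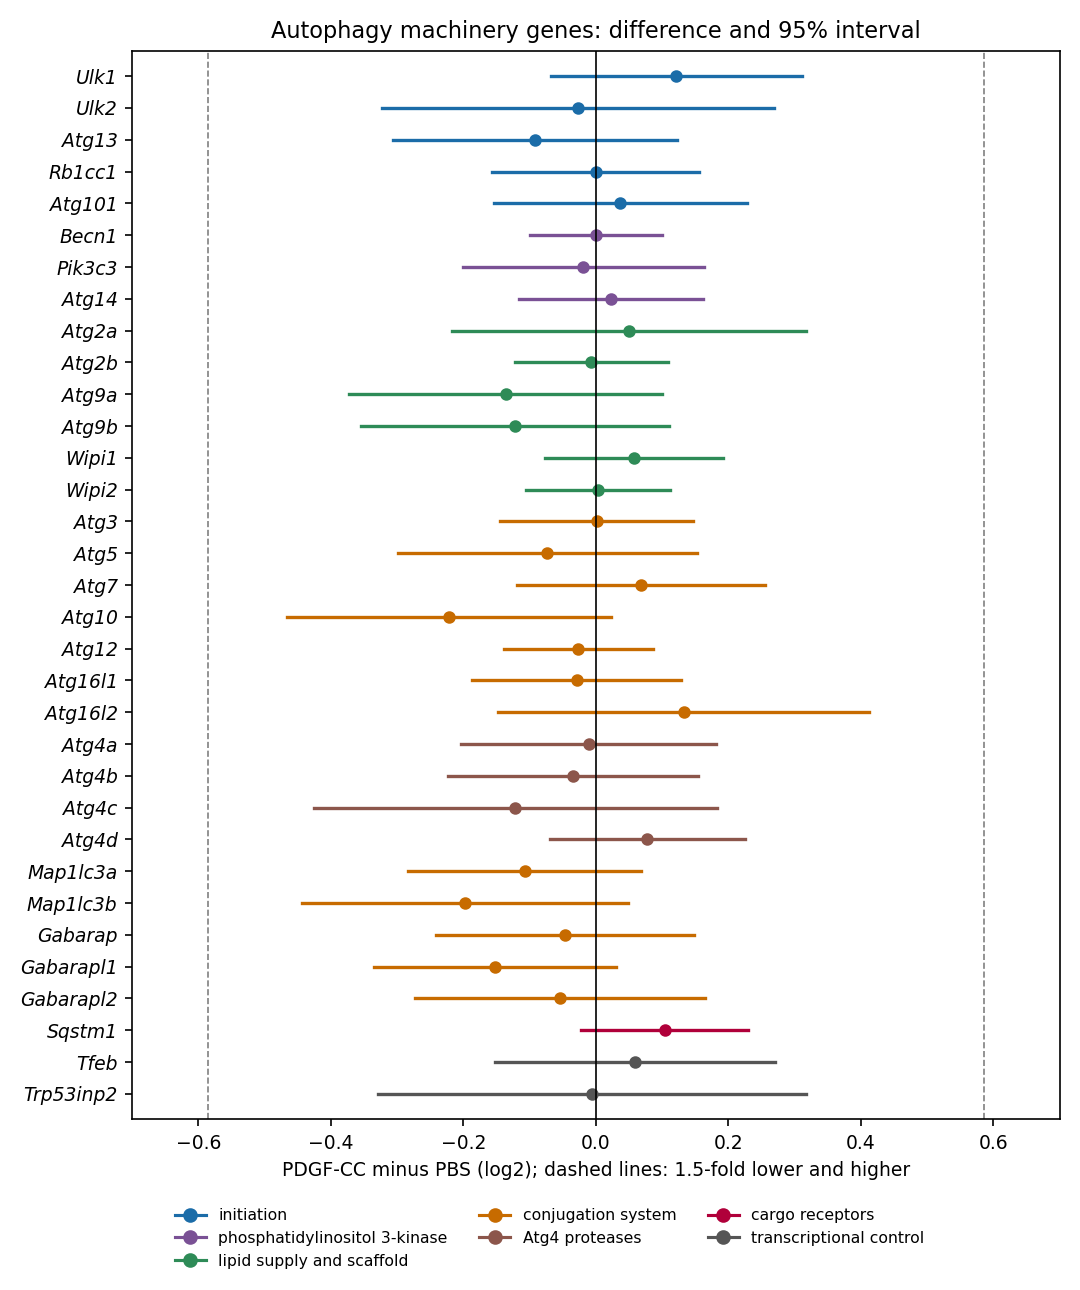
Difference of PDGF-CC minus PBS (x axis, log2) for the 33 autophagy machinery genes, coloured by role, with lines for the 95% confidence interval of the limma fit (4 and 3 arrays). Every interval crosses 0 and stays inside the dashed lines at 1.5-fold.

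The initiation complex joins the kinases Ulk1 and Ulk2 with Atg13, the scaffold Rb1cc1 (FIP200) and Atg101. The level of Ulk1 was 7.69, 7.69, 7.67 and 7.67 in PDGF-CC arrays 1 to 4 and 7.49, 7.44 and 7.75 in PBS arrays 1 to 3 (log2). The 4 PDGF-CC values lay close together, above PBS arrays 1 and 2 and below PBS array 3, so the groups overlapped. Its difference was +0.12 ± 0.08 (SE, n = 4 and 3, limma adjusted p = 0.770). Without PBS array 3 the difference was +0.22, with an adjusted p of 0.664. The second kinase gene, Ulk2, was at -0.03 ± 0.13, and PDGF-CC array 1, at 8.25, was far below the other 3 PDGF-CC arrays (8.62 to 8.69). Without that array it was at +0.07. Atg13 was at -0.09 ± 0.091 (-0.03 without PBS array 3), Atg101 at +0.04 ± 0.081 and Rb1cc1 at -0.00063 ± 0.066.

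The phosphatidylinositol 3-kinase complex had the smallest differences of the groups with more than 1 gene, with a median size of 0.019. Pik3c3 is its lipid kinase, Becn1 its regulatory subunit and Atg14 the subunit that directs it to autophagy. Becn1 held exactly the same log2 value, 7.03, in all 7 arrays. Its SE of 0.042 therefore comes from the spread that limma borrows from other probe sets, not from its own values. A further probe set is annotated to Becn1 together with another gene and was left out by the rule. Pik3c3 ranged from 7.88 to 8.16, both in PDGF-CC arrays, with the PBS arrays between, and differed by -0.02 ± 0.077. Atg14 was at +0.02 ± 0.059.

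Genes for lipid supply and the membrane scaffold overlapped between the groups as well. Atg9a, which encodes the scramblase that travels in vesicles to the forming membrane, was at 7.11, 7.11, 7.11 and 7.07 after PDGF-CC and 7.10, 7.11 and 7.49 after PBS. Only PBS array 3 stood out, and the other 6 arrays lay within 7.07 to 7.11. The difference of -0.14 ± 0.10 (adjusted p = 0.774) shrank to -0.0075 without it. Its tissue-restricted relative Atg9b was near the filter value of 4.145, with means of 4.46 and 4.58, and was at -0.12 ± 0.099 (-0.0067 without PBS array 2). The lipid transfer proteins Atg2a and Atg2b were at +0.05 ± 0.11 and -0.0069 ± 0.049. Wipi1 and Wipi2, which bind the lipid made by the kinase complex, were at +0.06 ± 0.057 and +0.0031 ± 0.046. Without PBS array 2 Atg2a was at -0.07, and without PBS array 1 Wipi1 was at +0.02.

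Conjugation enzymes attach Atg12 to Atg5 and LC3 to lipid. Atg7 is the E1-like activating enzyme of both reactions, Atg10 and Atg3 are the E2-like enzymes, and Atg5, Atg12 and Atg16l1 form the complex that places LC3 on the membrane. The lowest difference of all members was that of Atg10, whose level was 5.41, 5.61, 5.79 and 5.75 in PDGF-CC arrays 1 to 4 and 5.77, 5.96 and 5.85 in PBS arrays 1 to 3. PDGF-CC arrays 1 and 2 were the lowest, while array 3 lay above PBS array 1 and array 4 just below it. The difference was -0.22 ± 0.10 (adjusted p = 0.769), and it was -0.14 without PDGF-CC array 1. The other E2-like gene, Atg3, had 10.01, 10.11, 10.22 and 10.15 after PDGF-CC and 10.15, 10.10 and 10.12 after PBS, and the PDGF-CC arrays spread on both sides of the PBS arrays. Its difference was +0.0011 ± 0.062, with an interval of -0.14 to +0.15.

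The remaining conjugation genes showed the same overlap. Atg7 was at +0.07 ± 0.079, Atg5 at -0.07 ± 0.096, Atg12 at -0.03 ± 0.048 and Atg16l1 at -0.03 ± 0.067. For Atg7 the difference rested on PDGF-CC array 1, which was at 6.85 while the other 6 arrays lay between 6.54 and 6.63. Without that array it was at +0.0031. The highest difference of all members belonged to Atg16l2, a relative of Atg16l1, at +0.13 ± 0.12 (adjusted p = 0.799). Its PDGF-CC arrays spread from 6.28 to 6.77, wider than the PBS arrays (6.31 to 6.44), and without PDGF-CC array 1 it was at +0.05.

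Tfeb and its relatives are known to bind a palindrome around the letters CACGTG (the CLEAR element) at genes of autophagy and lysosomes. In RefSeq promoters of the assembly GRCm38.p6, 27 of the 33 genes had a sequence for the 250 bases upstream of a start site. CACGTG, which is its own reverse complement, was found in 3 of these 27 genes (11.1%), beside 6.86% of 27025 genes with such a window. They were Atg3, Atg5 and Atg7. The longer palindrome TCACGTGA, which contains CACGTG, was found in Atg3 alone (3.7%), beside 0.907% of genes. The forkhead core GTAAACA, searched on both strands, was in 0 of 27, beside 3.54% of genes. Only these exact letters were searched, so other forms of such sites were not counted. A match is only a run of letters in this window. The last 150 bases before the start site are shown for these 3 genes, with the matches in capitals, and for Map1lc3b and Gabarapl1, 2 genes described below that had none of these letters. They lie at chr16:45158679-45158828, chr10:44268189-44268338, chr6:114670946-114671095, chr8:121590288-121590437 and chr6:129533042-129533191, all on the plus strand.
Atg3: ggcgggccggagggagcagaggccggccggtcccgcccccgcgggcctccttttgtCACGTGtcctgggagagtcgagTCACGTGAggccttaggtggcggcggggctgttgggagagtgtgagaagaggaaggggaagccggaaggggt
Atg5: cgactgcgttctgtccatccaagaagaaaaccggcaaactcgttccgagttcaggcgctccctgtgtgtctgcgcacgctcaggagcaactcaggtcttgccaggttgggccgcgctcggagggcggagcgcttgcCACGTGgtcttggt
Atg7: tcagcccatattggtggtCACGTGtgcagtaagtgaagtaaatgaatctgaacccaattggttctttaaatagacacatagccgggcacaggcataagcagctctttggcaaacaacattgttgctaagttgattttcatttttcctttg
Map1lc3b: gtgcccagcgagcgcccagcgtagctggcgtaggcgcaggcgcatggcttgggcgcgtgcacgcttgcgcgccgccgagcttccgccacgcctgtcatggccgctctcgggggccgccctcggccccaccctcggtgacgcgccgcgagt
Gabarapl1: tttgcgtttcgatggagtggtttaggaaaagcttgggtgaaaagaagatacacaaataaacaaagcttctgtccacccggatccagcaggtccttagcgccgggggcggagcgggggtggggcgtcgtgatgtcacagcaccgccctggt
The Atg3 window holds CACGTG 2 times, starting 94 and 71 bases upstream, the second inside the longer palindrome. In Atg5 the match starts 14 bases and in Atg7 132 bases upstream. The RNA differences of these 3 genes are those given above, +0.0011, -0.07 and +0.07.

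Atg4 proteases cut ubiquitin-like proteins before they are attached and release them again from the membrane. Atg4b, the most active of them on LC3, was at 6.09, 6.35, 6.35 and 6.35 after PDGF-CC and 6.35, 6.26 and 6.35 after PBS. It held 1 single value in 5 of the 7 arrays, and only PDGF-CC array 1 and PBS array 2 were lower. Its difference was -0.03 ± 0.08 (adjusted p = 0.924). Atg4a was at -0.01 ± 0.081, Atg4c at -0.12 ± 0.13 and Atg4d at +0.08 ± 0.062. Atg4c had the widest spread of the 4, from 5.65 to 6.16, and was at -0.0013 without PBS array 1.

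Further members encode ubiquitin-like proteins of the autophagosome membrane, and none of them passed the test. The level of Map1lc3b, which encodes the common autophagosome marker LC3B, was 9.78, 10.00, 10.09 and 9.85 in PDGF-CC arrays 1 to 4 and 10.03, 10.31 and 10.04 in PBS arrays 1 to 3. PBS array 2 was the highest and PDGF-CC arrays 1 and 4 the lowest, while PDGF-CC array 3 exceeded PBS arrays 1 and 3. The difference was -0.20 ± 0.10 (n = 4 and 3, limma adjusted p = 0.769), a percent change of -12.8%, with an interval of -0.44 to +0.05. Without PBS array 2 it was at -0.11.

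Gabarapl1 was at 8.16, 8.17, 8.30 and 8.30 after PDGF-CC and 8.30, 8.32 and 8.53 after PBS. No PDGF-CC array exceeded any PBS array, but PDGF-CC arrays 3 and 4 and PBS array 1 held exactly the same value. Its difference was -0.15 ± 0.077 (adjusted p = 0.769), and PBS array 3 was the highest. Without that array it was at -0.08. Map1lc3a, which encodes LC3A, was at 6.06, 6.17, 6.19 and 6.25 after PDGF-CC and 6.19, 6.22 and 6.41 after PBS, again with PBS array 3 highest and PDGF-CC array 1 lowest, and differed by -0.11 ± 0.074 (adjusted p = 0.772). Without PBS array 3 it was at -0.04.

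Gabarap was at -0.05 ± 0.082 on its brightest probe set and at -0.08 on a dimmer one, and PBS array 3 was the highest on both. Without PBS array 3 the brightest was at +0.03. Gabarapl2 was at -0.05 ± 0.093, and at +0.02 without PBS array 2.

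The cargo receptor Sqstm1 (p62), which binds ubiquitin and LC3 and is itself degraded by autophagy, was the positive gene with the smallest p among the members. Its level was 9.55, 9.60, 9.63 and 9.55 in PDGF-CC arrays 1 to 4 and 9.42, 9.46 and 9.55 in PBS arrays 1 to 3. All PDGF-CC arrays lay above PBS arrays 1 and 2, and PBS array 3 had exactly the value of PDGF-CC arrays 1 and 4. The difference was +0.10 ± 0.053 (adjusted p = 0.769), a percent change of 7.5%. Without PBS array 3 it was at +0.14 (adjusted p = 0.776).

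Of the regulators among the members, Tfeb encodes the transcription factor of lysosome and autophagy genes, and Trp53inp2 a nuclear protein that moves to autophagosomes and binds LC3. Tfeb was at 5.31, 5.42, 5.39 and 5.44 after PDGF-CC and 5.16, 5.30 and 5.53 after PBS. The PBS arrays enclosed all PDGF-CC arrays, with PBS array 1 lowest and PBS array 3 highest, and the difference was +0.06 ± 0.089. Trp53inp2 was at 7.06, 6.98, 7.06 and 7.11 after PDGF-CC and 7.06, 6.75 and 7.37 after PBS, with PBS array 2 lowest and PBS array 3 highest. It differed by -0.0064 ± 0.14, and the value ran from -0.16 without PBS array 2 to +0.15 without PBS array 3.

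Across the members, PBS array 3 stood out. It had the highest value of all 7 arrays in 13 of 33 genes (39.4%) and the lowest in 0, beside 18% and 11.5% of all tested probe sets. PDGF-CC array 2 was the highest in 0 of 33, beside 13.8%, and PDGF-CC array 1 was the lowest in 10 (30.3%), beside 19.7%. PBS array 2 was the lowest in 8 (24.2%), beside 18.1%. These shares describe the arrays and were not tested. Without PBS array 3 the negative members numbered 14 in place of 20. The median deviation of the members from their own means was +0.05 in PBS array 3, -0.04 in PBS array 2 and between -0.02 and +0.008 in the other 5 arrays.

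**Figure D2:**
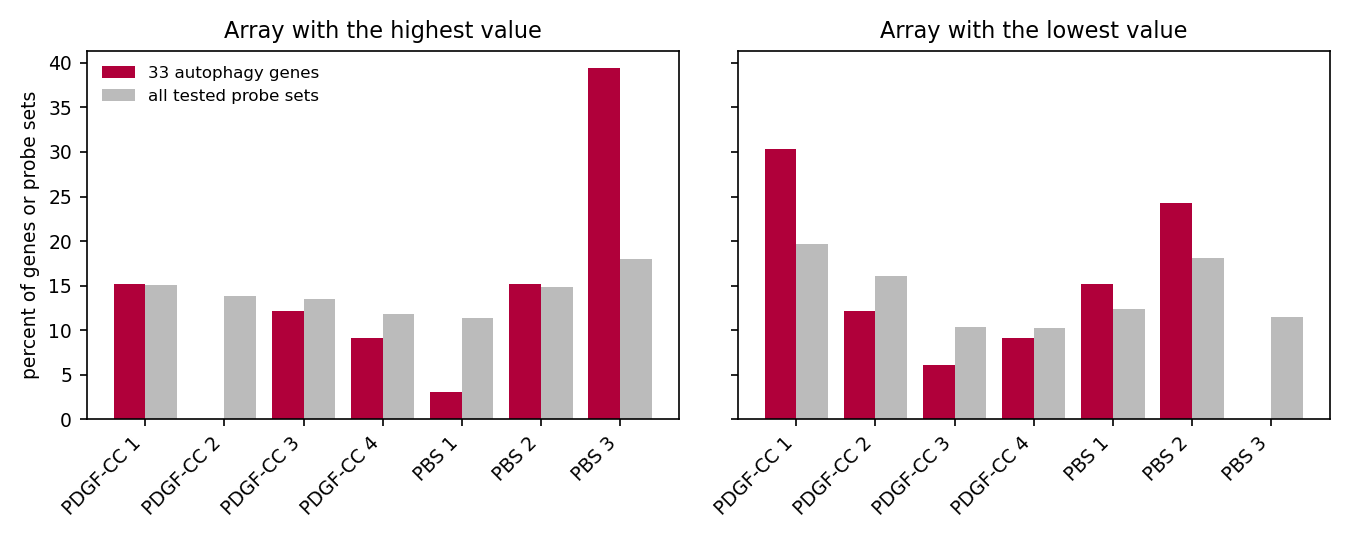
Percent (y axis) of the 33 autophagy genes and of all tested probe sets for which each array (x axis) had the single highest value (left) or lowest value (right). PBS array 3 was the highest in 39.4% of the genes against 18% of probe sets, and the lowest in none of them.

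Exactly equal values were common. In 13 of the 33 genes (39.4%) at least 3 arrays shared 1 deposited value, as in 37.4% of all tested probe sets, and in Atg2b, Atg9a, Atg5, Atg7, Atg12 and Atg4d 4 arrays did. The median residual SD of the members was 0.107, beside 0.128 over all tested probe sets. The origin of the equal values was not tested.

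The sample descriptions number the arrays 1 to 7 over both groups, and 2 arrays of each group lie in numbers 1 to 4. Within 1 to 4 and within 5 to 7 the PDGF-CC numbers come before the PBS numbers, so order within a part and treatment cannot be told apart. Map1lc3b was at -0.28 within 1 to 4 and -0.08 within 5 to 7, Gabarapl1 at -0.15 and -0.23, and Map1lc3a at -0.10 and -0.19. Gabarapl2 turned from -0.19 to +0.15 and Gabarap from +0.0046 to -0.18. Atg10 was at -0.36 and -0.08, and Sqstm1 at +0.13 and +0.04. Ulk1 was at +0.23 within 1 to 4 and -0.08 within 5 to 7, where PBS array 3 is the only PBS array. With these parts as a block, Atg10 and Gabarapl1 had an unadjusted limma p under 0.05, at -0.25 and -0.18. Their adjusted p were 0.558 and 0.451, and the share of all probe sets under 0.05 in this fit is not given here.

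Other genes of the pathway were read from 6 lists of 102 genes, of which 96 were measured and tested. None passed the adjusted threshold. The lists were chosen with earlier results of these data known. The counts below may exceed the shares of all probe sets through that choice alone. At an unadjusted p under 0.05, 7 were lower and 2 higher of 96, beside the 3.41% and 2.63% of all tested probe sets. In 6 of 96 every PDGF-CC array lay below every PBS array, and in 0 above, beside 4.3% of all tested probe sets for both directions together. Of 24 genes that control mTORC1 and AMPK, the kinases that inhibit and activate Ulk1, 3 were lower and 1 was higher at that p. The higher one was Sesn2, a stress-induced relative of Sesn1, at +0.23 ± 0.098, which is outside the rule for named genes and is named after its value was seen. Of 11 genes on a list of transcriptional regulators, which is not limited to transcription factors, 2 were lower and 1 was higher. The lower ones were Trp53inp1 and Depp1, and the higher one was the transcription factor gene Tfe3.

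Trp53inp1, on the regulator list, is the close relative of Trp53inp2 that also binds LC3. Its levels were 6.70, 7.04, 6.73 and 6.97 after PDGF-CC and 8.38, 8.94 and 8.46 after PBS. Every PDGF-CC array was more than 1 log2 unit below every PBS array. The difference was -1.73 ± 0.15 (limma adjusted p = 0.0549, and between 0.0310 and 0.428 over the alternatives, of which 4 of 17 passed the threshold), against -0.0064 ± 0.14 for Trp53inp2. Depp1, a FOXO target that affects autophagy, was at -1.39 ± 0.24 (adjusted p = 0.623) and Ddit4, which inhibits mTORC1 through the TSC complex, at -1.37 ± 0.26 (adjusted p = 0.722). In the same arrays the mean of the choroid plexus markers was 6.49 to 7.34 after PDGF-CC and 7.51 to 7.85 after PBS, and its part in these differences was not tested. Sesn1, a leucine-responsive brake on mTORC1, was at -0.62 ± 0.066 (adjusted p = 0.130). Castor1, the arginine sensor that acts on the same kinase, was at 7.57, 7.56, 7.75 and 7.80 after PDGF-CC and 8.17, 7.81 and 8.09 after PBS, with every PDGF-CC array below every PBS array, and differed by -0.36 ± 0.11 (adjusted p = 0.769). Tfe3, a relative of Tfeb that binds the same palindrome, was at +0.19 ± 0.078 (adjusted p = 0.769), and its groups met at 7.15. Its difference was +0.32 within description numbers 1 to 4 and 0 within 5 to 7.

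Cargo and mitophagy receptors outside the members were negative for 8 of 10 (5 of 10 without PBS array 3), beside 51.4% of all tested probe sets. Of these 10 receptors, 1 was lower at an unadjusted p under 0.05, beside 3.41% of all tested probe sets. Bnip3, a receptor that links mitochondria to LC3, was at 7.38, 7.72, 7.89 and 7.78 after PDGF-CC and 8.17, 8.31 and 7.89 after PBS. PDGF-CC arrays 1, 2 and 4 lay below all PBS arrays and array 3 had exactly the value of PBS array 3. The difference was -0.43 ± 0.14 (adjusted p = 0.769), and without PDGF-CC array 1 it was at -0.33. Within description numbers 1 to 4 it was -0.69, and within 5 to 7 it was -0.06. Fundc1, another mitophagy receptor, was at -0.34 ± 0.17 near the filter value, and at -0.13 without PBS array 3. Retreg1, a receptor for parts of the endoplasmic reticulum, was at +0.16 ± 0.09.

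Of 12 genes for fusion of autophagosomes with lysosomes, 1 was lower at an unadjusted p under 0.05, beside 3.41% of all tested probe sets. It was the SNARE gene Ykt6, at -0.19 ± 0.075 (limma adjusted p = 0.769). All its PDGF-CC arrays lay below all PBS arrays, and 4.3% of all tested probe sets had groups fully apart in either direction. Vps41, of a tethering complex, was at -0.11 ± 0.061 and Tecpr1 at -0.13 ± 0.071. Of 12 further core genes 0 had an unadjusted p under 0.05, beside 3.41% lower and 2.63% higher of all tested probe sets. Vps13a, a lipid transfer protein gene, was at -0.22 ± 0.12. Nrbf2, of the phosphatidylinositol 3-kinase complex, was at +0.11 ± 0.075 and the scramblase gene Tmem41b at +0.09 ± 0.068.

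Lysosomal genes were positive for 18 of 27, with 0 at an unadjusted p under 0.05 and a median of +0.03. Over all tested probe sets 51.4% were negative, and at that p 3.41% were lower and 2.63% higher. Without PBS array 2 the lysosomal genes were positive for 12 of 27, with a median of -0.0048. The 3 genes with the smallest p were all positive. The protease gene Ctsl was at +0.16 ± 0.075, the glucuronidase gene Gusb at +0.15 ± 0.075 and the hexosaminidase gene Hexa at +0.41 ± 0.21. Of the 27 genes 9 were negative, down to Lamp1 at -0.13, which is outside the rule for named genes. For Hexa, PBS array 2 was at 8.58 and the other 6 arrays between 9.33 and 9.63. Without PBS array 2, Ctsl was at +0.08, Gusb at +0.08 and Hexa at +0.13. PBS array 2 was also the lowest in microglial markers, with a mean of 9.06 against 9.50 to 9.67 in the other arrays, and their part in the lysosomal values was not tested.

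**Figure D3:**
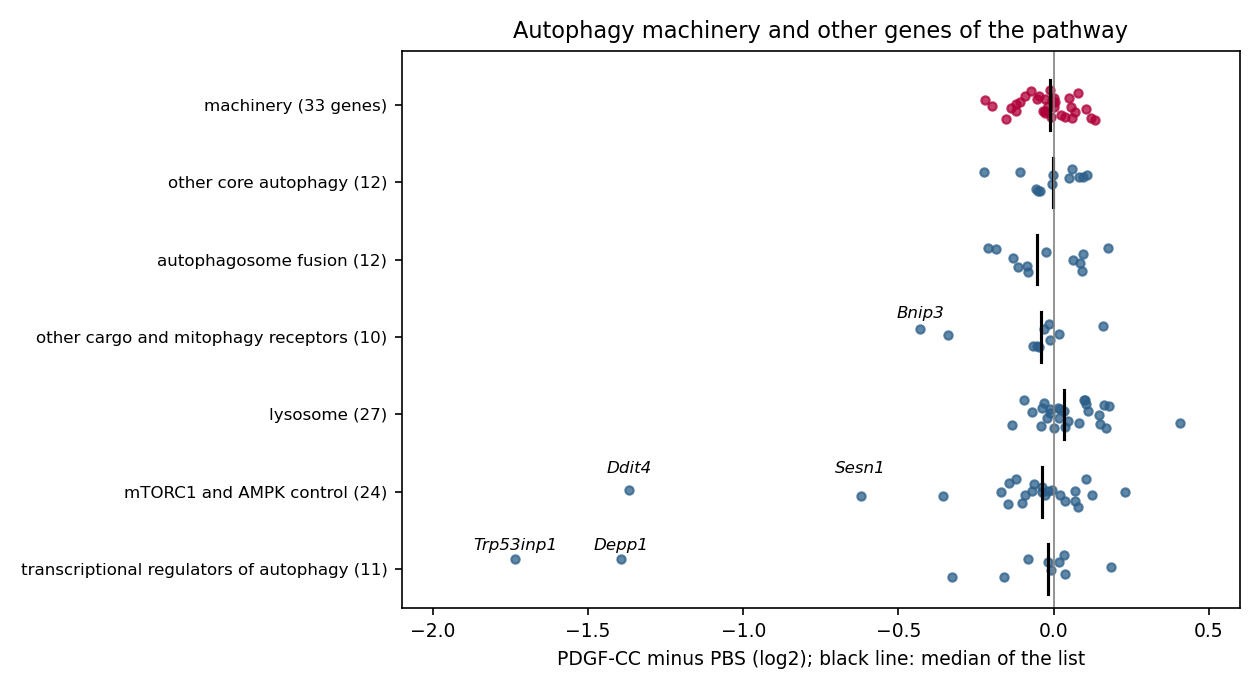
Difference of PDGF-CC minus PBS (x axis, log2) for each gene of the autophagy machinery (33 genes, red) and of 6 other lists of the pathway (blue, number of genes in brackets), with the median of each list as a black line and the 5 lowest genes named. The machinery stays between -0.22 and +0.13, while Trp53inp1, Depp1, Ddit4 and Sesn1 lie at -1.73, -1.39, -1.37 and -0.62. Members and lists were chosen with earlier results of these data known, and this contrast may come from that choice alone.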

How the data were processed

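RNA of 7 samples (10 ng each, per the labels) was measured on 1 microarray each. The deposited values are log2 expression levels per probe set, as their range showed. Per the submitters' processing notes, which give neither versions nor order, Affymetrix Expression Console, RMA and limma were used. RMA as usually run equalizes the distributions of arrays, which removes differences in overall RNA level, and can compress fold changes. The settings and the genome build are not given in the sources used. Arrays have no sequencing depth; their number sets the precision.

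Gene symbols came from the platform annotation: 23521 probe sets had 1 symbol, 1814 several and 8458 none. Probe sets that carry a symbol and whose mean exceeds the 30th percentile (log2 4.145) were tested 2-sided across all genes with limma 3.58.1 (lmFit, eBayes; R 4.3.3), with no covariate, and adjusted by Benjamini-Hochberg with a threshold of 0.05. Intervals are limma's 95% intervals. Named were all members and, of each of 6 pathway lists, at most 3 genes with the smallest p. The members and lists were chosen with earlier results of these data known. The 17 alternatives changed the filter, scaling, prior, weights, covariates, blocks or choice of probe set, or left out 1 array. The fit was tested on simulated data. Promoters were read from RefSeq (GRCm38.p6). Figures used matplotlib 3.10.9. One combined gene group is not reported here.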

Additional observations from a re-analysis of the deposited data

Results flagged for a closer look

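In 8 of the 50 named genes with any spread over the PDGF-CC arrays, 1 PDGF-CC array lay far from the other 3, by a gap that took up more of the whole range of the 4 arrays than the 95% limit of Dixon's test. Chance flags about 1 in 20 groups of values without ties, and that rate cannot be applied to these genes, where equal values are common. PBS, with 3 arrays, was not examined this way. For Atg2b, Atg9a, Atg7, Atg12 and Atg4b the other 3 PDGF-CC arrays held 1 value, so the gap was by construction 1 of the range. The array that differed was array 2 for Atg2b (6.41 against 6.43) and Atg12 (8.04 against 8.11), array 4 for Atg9a (7.07 against 7.11), and array 1 for Atg7 (6.85 against 6.59) and Atg4b (6.09 against 6.35). For Gabarap array 2 was at 11.00 against 11.11, with a gap of 0.993. Atg4d had array 1 at 5.94 against 5.80 (0.838), and Ulk2 had array 1 at 8.25 against 8.62 (0.841).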

How the results depend on the processing

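No member passed the adjusted threshold under any of the 17 alternatives, and the lowest adjusted p was 0.451. The fit over all probe sets called 3 with a 50th-percentile filter, with arrays centred on their median and with a trended and robust prior, 1 with repeated quantile normalization, and 0 to 1 with 1 array left out (1 without PDGF-CC array 3). The mean over probe sets of a gene gives no such count. At an unadjusted p under 0.05, repeated quantile normalization gave 1 higher member (Sqstm1). Numbers 1 to 4 against 5 to 7 as a block gave 2 lower members. Leaving out an array gave 0 to 1 lower (Atg10) and 0 to 2 higher (Ulk1 and Sqstm1, without PBS array 3). The shares of all probe sets at that p are not given here for any alternative, so these counts cannot be set against them. The median of the members ran from -0.031 to +0.0081 and moved by less than its SD between arrays of 1 group (0.029). The count of members inside 1.5-fold was 33 throughout, apart from 32 with the filter at the 50th percentile, which removes Atg9b. Alternatives for counts of negative members, for intervals and for pathway genes and lists were chosen after seeing the data.

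Of the 32 members with a difference other than 0, 15 kept their sign under every alternative and 17 did not, the largest of these being Atg5 at -0.073. Becn1, at 0, moved to +0.017 with repeated quantile normalization and +0.0099 with centring. Repeated quantile normalization turned Ulk2 (+0.0028), Rb1cc1 (+0.029), Pik3c3 (+0.0060), Atg2b (+0.0081), Atg4a (+0.012) and Trp53inp2 (+0.014). Centring arrays on their median turned Rb1cc1 (+0.0093), Atg2b (+0.0031) and Trp53inp2 (+0.0036), and array weights turned Rb1cc1 (+0.043). Description number as a covariate turned Ulk2 (+0.027), Rb1cc1 (+0.026), Atg2b (+0.0030), Atg4a (+0.017) and Trp53inp2 (+0.048), and its 2 parts as a block turned Wipi2 (-0.0025) and Atg3 (-0.011). With 1 array left out, ranges that crossed 0 were -0.11 to +0.072 for Ulk2, -0.049 to +0.038 for Rb1cc1, -0.020 to +0.075 for Atg101, -0.065 to +0.030 for Atg4b, -0.078 to +0.013 for Pik3c3, -0.13 to +0.00028 for Atg5, -0.16 to +0.15 for Trp53inp2, -0.032 to +0.039 for Atg3, -0.015 to +0.051 for Atg14, -0.014 to +0.017 for Wipi2, -0.024 to +0.16 for Tfeb, -0.074 to +0.16 for Atg2a, -0.12 to +0.021 for Gabarapl2, -0.037 to +0.024 for Atg2b, -0.082 to +0.035 for Atg16l1, -0.091 to +0.078 for Atg4a and -0.13 to +0.031 for Gabarap. The cause was not tested.

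Title numbers are shared by 3 pairs of arrays, whose deviations correlated at 0.163, 0.107 and 0.0844. PBS arrays 1 and 2 each correlated best with the PDGF-CC array of their own number, and PBS array 3 with PDGF-CC array 4 (0.320). Each PDGF-CC array correlated positively with every PBS array of its own part of the description numbers, at 0.0403 to 0.320. With PBS arrays of the other part all correlations were negative, at -0.224 to -0.0075. Arrays that share a title number also lie in the same part. Whether the title numbers mark pairs therefore cannot be decided from these values. The main fit used neither the title numbers nor the parts. With the title numbers as a replicate block, 1 member (Atg10) was lower at an unadjusted p under 0.05 and 0 probe sets were called. In that fit 16 intervals lay within 1.25-fold, and Pik3c3 (+0.013), Atg14 (-0.015), Wipi2 (-0.014) and Atg3 (-0.0086) changed sign.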
